A study of Rattus norvegicus with 4 samples.

Results

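The tumour suppressor p53 is a transcription factor held low by its ubiquitin ligase Mdm2, and after DNA damage or other stress it raises genes that stop the cell cycle, repair DNA, change metabolism or start cell death. A smaller set of inhibitors of cyclin-dependent kinases (CDKs) keeps the retinoblastoma protein active and holds cells in quiescence or senescence, with or without p53. In kidney tubular epithelium these genes are known for arrest and death of cells after toxic or ischaemic injury. A list of 32 such genes was looked up by exact symbol in the table of 17768 genes, and 28 were listed. Bbc3 and Tnfrsf10b, which are p53 targets of cell death, and Cdkn2a and Cdkn2b, which encode CDK inhibitors of senescence, were not matched and are not analysed here.

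NRK-52E is a cell line grown from the kidney of a normal rat and described as proximal tubular epithelium, and its RNA was sequenced in 4 libraries, 2 of lv_nc and 2 of lv_Mettl3. By the labels' protocols, the overexpressing line was made with a lentivirus that carries a murine Mettl3 cDNA and a puromycin resistance gene, harvested 48 h after transfection of the packaging cells. It was selected as a stable line with 0.5 mg/ml puromycin and then grown with 0.25 mg/ml in 10% serum. The same puromycin, serum and 48 h values are recorded for all 4 libraries, those of lv_nc included. Mettl3 is the catalytic subunit of the writer of N6-methyladenosine on RNA. All 4 libraries carry the treatment label untreated. The labels do not spell out nc, nor say whether replicates were separate cultures, so the p-values reflect variation among these 4 libraries alone, and it may be technical. In bulk RNA, fewer cells of a type and less RNA per cell cannot be told apart.

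Library depth was 15068898 to 16622255 gene reads. Mettl3 itself had normalized read counts of 719 and 767 in the libraries labelled lv_nc and 757 and 699.6 in those labelled lv_Mettl3 (limma log2 fold change -0.03, SE 0.11, adjusted p = 0.931). These are counts of the rat gene (ENSRNOG00000013111), whereas the cDNA is murine. Whether reads of the cDNA are counted at the rat gene was not tested. The groups overlapped for the titled gene, so each direction below is that of libraries by label. Of the kidney epithelial markers, Krt8 was abundant at 28296 to 33065, whereas the proximal tubule genes Lrp2 and Aqp1 did not exceed 1.95 and 6.46 and Cdh1 did not exceed 8.79 in any library. The 8 listed fibroblast and smooth muscle markers summed to 13695 and 17962 in lv_nc and to 5458 and 4969 in lv_Mettl3. DESeq2 gave 7 of them an adjusted p and called 4, all lower, against 1.07% of all genes given one. Of 10 kidney epithelial markers tested, DESeq2 gave 5 an adjusted p and called 1, higher, against 1.45%. The part of these markers in the results below was not tested.

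Of the members, DESeq2 called the polo-like kinase genes Plk2 and Plk3 and the death gene Pmaip1 higher in lv_Mettl3, and no other. Sizes did not follow the calls: Perp, Sesn1, Eda2r, Aen and Ddb2 had larger log2 fold changes than Pmaip1 by limma and by DESeq2, in either direction, and were not called. Fas and Gdf15 were also larger by limma, but DESeq2 gave them no adjusted p, and its log2 fold change for Fas was 0.0028. The main test, limma on log2(value + 1) over 16391 genes, called 0 of the 28 members at an adjusted p of 0.05, against 0.0183% of all genes tested. At an unadjusted p under 0.05, limma gave 5 members higher and 2 lower, against 5.54% and 4.93% of all genes tested, together 10.5%. With quasi-likelihood fits in edgeR, 0 members were called, against 0.0305% of all genes, with 8 at an unadjusted p under 0.05, against 10.1%. DESeq2 on the recovered reads gave 26 members an adjusted p and called 3, all higher, against 2.52% of all genes given an adjusted p (1.45% called higher and 1.07% lower). Members and the lists further down were chosen with earlier results of these data known. Counts of calls among them therefore support no difference from all genes. Below, a gene rose or fell where the named test called it. Over the 28 members, 17 log2 fold changes were above 0 and 11 below, with a median of 0.09, beside a median of 0.01 over all genes tested. In 19 members (67.9%) the change was under 1.5-fold in either direction, beside 79.1% of all genes tested. Among genes with a mean of at least 100, this held for 79.2% of 24 members and 93.7% of all 10051 genes.

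The genes that DESeq2 called are given first. Plk2 encodes a polo-like kinase of centriole duplication and the stress response. It had normalized read counts of 1639 and 837 in lv_nc, against 2599.7 and 2265 in lv_Mettl3. Both lv_Mettl3 libraries were above both lv_nc libraries, and the lv_nc libraries lay far apart. Plk2 rose from 1238 ± 567 to 2432 ± 237 (SD, n = 2), a DESeq2 log2 fold change of 0.97 (SE 0.25, adjusted p = 0.00828), with limma at 1.05 (SE 0.32, adjusted p = 0.452). Plk3 encodes a related kinase that acts in the DNA damage checkpoint. Its counts were 385 and 318 in lv_nc, against 621 and 671 in lv_Mettl3, with a narrow spread in each group. Plk3 rose from 352 ± 47.0 to 646 ± 34.9 by DESeq2 (log2 fold change 0.88, SE 0.22, adjusted p = 0.00467), where limma gave 0.88 (SE 0.15, adjusted p = 0.326). Pmaip1 encodes Noxa, a BH3-only protein that neutralises Mcl1. Its counts were 3406 and 2667 in lv_nc, against 4436 and 4515 in lv_Mettl3, so the groups did not overlap. Pmaip1 rose from 3036 ± 522 to 4476 ± 55.8 by DESeq2 (log2 fold change 0.56, SE 0.16, adjusted p = 0.0307), and the limma value was 0.57 (SE 0.14, adjusted p = 0.399).

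These calls depended on single libraries, as did those over the whole table: DESeq2 called 12.7% of genes without lv_nc replicate 1 and 1.61% without lv_nc replicate 2, and 0.415% and 0.452% without lv_Mettl3 replicates 1 and 2. Without lv_nc replicate 1, DESeq2 adjusted p-values of Plk2, Plk3 and Pmaip1 were 5.58e-20, 0.000584 and 1.03e-08. Without lv_nc replicate 2 they were 0.0132, 0.0896 and 0.049, so the call of Plk3 ended. The calls of all 3 ended without lv_Mettl3 replicate 1 (1.00, 0.83 and 1.00) and without lv_Mettl3 replicate 2 (0.488, 1.00 and 1.00). The limma log2 fold change without 1 library ran from 0.57 to 1.53 for Plk2, 0.74 to 1.02 for Plk3 and 0.39 to 0.75 for Pmaip1. The direction of each was therefore the same in every such fit, and the size of Plk2 changed most. Without lv_Mettl3 replicates 1 and 2, DESeq2 log2 fold changes were 0.87 and 1.07 for Plk2, 0.93 and 0.82 for Plk3, and 0.57 and 0.54 for Pmaip1. In each such fit the spread came only from the group that kept both libraries, so an ended call need not mean a changed size. In the authors' file, whose genome build is not given in the sources used here, Plk2 (ENSRNOG00000011951) lies on chromosome 2 at 41911131 to 41916901. Plk3 (ENSRNOG00000018484) lies on chromosome 5 at 135997725 to 136002900 and Pmaip1 (ENSRNOG00000018770) on chromosome 18 at 62174670 to 62181102.

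The promoters of these 3 genes are shown because they were the members called higher, with that of Cdkn1a, the best known p53 target, for comparison. Each is the 250 bases before the RefSeq gene start in build GRCr8, 5′ to 3′ on the strand of the gene. Capitals mark letters matching TGACGTNA on either strand (a loose form of the cAMP response element, CRE) or, in Cdkn1a, the p53 half-site consensus.
Plk2, chr2:43702286-43702535, plus strand: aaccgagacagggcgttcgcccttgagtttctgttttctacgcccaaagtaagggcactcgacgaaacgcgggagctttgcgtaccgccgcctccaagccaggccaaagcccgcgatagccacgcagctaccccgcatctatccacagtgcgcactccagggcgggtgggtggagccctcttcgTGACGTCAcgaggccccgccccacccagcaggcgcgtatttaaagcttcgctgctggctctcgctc
Plk3, chr5:135848901-135849150, minus strand: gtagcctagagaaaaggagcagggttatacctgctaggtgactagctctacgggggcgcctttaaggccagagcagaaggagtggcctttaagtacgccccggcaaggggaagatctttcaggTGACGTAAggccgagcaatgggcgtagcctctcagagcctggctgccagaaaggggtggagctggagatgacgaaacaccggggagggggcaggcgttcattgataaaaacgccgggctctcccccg
Pmaip1, chr18:62255720-62255969, plus strand: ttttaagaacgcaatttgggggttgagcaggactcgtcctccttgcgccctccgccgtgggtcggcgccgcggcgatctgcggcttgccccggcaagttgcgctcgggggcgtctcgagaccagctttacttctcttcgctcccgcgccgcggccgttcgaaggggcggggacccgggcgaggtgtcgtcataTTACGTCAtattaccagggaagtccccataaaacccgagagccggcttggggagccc
Cdkn1a, chr20:7150682-7150931, plus strand: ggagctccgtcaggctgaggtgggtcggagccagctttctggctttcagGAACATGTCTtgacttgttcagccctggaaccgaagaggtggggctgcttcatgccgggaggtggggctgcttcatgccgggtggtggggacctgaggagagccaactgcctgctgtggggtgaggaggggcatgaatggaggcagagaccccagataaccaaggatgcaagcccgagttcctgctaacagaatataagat

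RefSeq promoters were found for 23 of the 28 listed members, and the motif letters were searched on both strands. The p53 half-site consensus of 10 letters matched in 7 of the 23 (Aen, Ccng1, Cdkn1a, Cdkn2c, Ei24, Gadd45a and Sesn1), against 6.64% of 33469 RefSeq promoters. The 3 genes called by DESeq2 had no match to it in this window. TGACGTNA matched in 5 of the 23 members, against 2.88% of all promoters: Plk2, Plk3, Pmaip1, Tigar and Btg2. The strict CRE TGACGTCA, which lies within TGACGTNA, matched in 2 members (Plk2 and Btg2), against 1.59%. These shares are per promoter, of genes tested here or not, whereas members were counted by gene. TGACGTNA was chosen after the sequences and values had been seen, so neither its count nor the fold changes of the members that carry it support anything. The 5 members with a match had limma log2 fold changes of 0.40 to 1.05, and in all 5 both lv_Mettl3 libraries were above both lv_nc libraries. The 18 members without it ranged from -0.77 to 1.37, and 6 of them were separated upwards. Of all genes tested with a RefSeq promoter matched by symbol, 24.6% of 472 with TGACGTNA were separated upwards, beside 22.5% of 9710 without. DESeq2 called 9 (1.91%) of the former and 103 (1.06%) of the latter higher. These shares keep genes that it gave no adjusted p. The genes with a match include the 5 members from which the motif was chosen, and these gave 3 of the 9 calls. The shares were not tested. The AP-1 letters TGANTCA matched in Fas and Perp (6.34% of all promoters), and the CArG box in 0 members (501 of the 33469 promoters). A match here is a description of letters and not of binding.

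**Figure D1:**
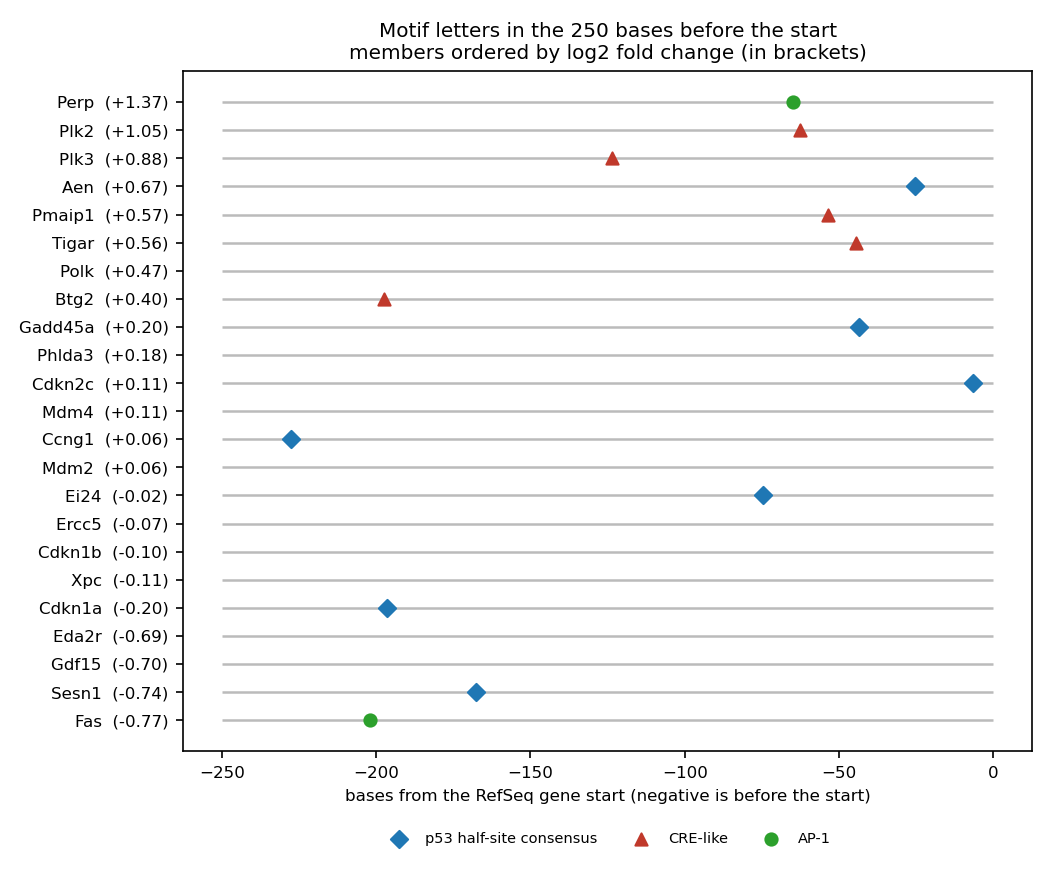
Motif letters in the 250 bases before the RefSeq start of 23 members; the x axis is the distance from the start in bases, each row is a gene ordered by limma log2 fold change (in brackets), and markers give the middle of each match. The 5 genes with TGACGTNA (triangles) sit between 0.40 and 1.05 in log2 fold change, and the 7 with a p53 half-site consensus (diamonds) between -0.74 and 0.67. TGACGTNA was chosen after these values had been seen, so the ranges support no comparison of the motifs.

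The other genes of cell cycle arrest included the most widely used readouts of p53. Cdkn1a encodes p21, the CDK inhibitor through which p53 stops the cycle. Its counts were 1666 and 1744 in lv_nc, against 1544 and 1426 in lv_Mettl3. Both lv_Mettl3 libraries were below both lv_nc libraries, by a small amount: the limma log2 fold change was -0.20 (95% interval -0.45 to 0.05, adjusted p = 0.512). Ccng1, which encodes cyclin G1, a partner of phosphatase 2A, had 4840.0 and 4132 in lv_nc, against 4904 and 4460.2 in lv_Mettl3. These groups overlapped, and the log2 fold change was 0.06 (95% interval -0.23 to 0.36). Btg2, an antiproliferative gene that recruits deadenylases, had 493 and 633 in lv_nc, against 725 and 747 in lv_Mettl3 (limma log2 fold change 0.40, SE 0.15, adjusted p = 0.477). Its value was 0.22 without lv_nc replicate 1 and 0.58 without lv_nc replicate 2. Gadd45a, a stress sensor that binds PCNA and kinases, had 299.9 and 369 in lv_nc, against 372 and 394 in lv_Mettl3, so that lv_nc replicate 2 lay next to the lv_Mettl3 libraries. Of the 6 members with a role in arrest, DESeq2 thus called 2 higher and 0 lower, against 1.45% and 1.07% of all genes.

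No gene of feedback on p53 was called by limma or DESeq2. Mdm2, the ubiquitin ligase that p53 itself induces, had 2157 and 1970.0 in lv_nc, against 2151 and 2153 in lv_Mettl3. The lv_Mettl3 values lay within the range of lv_nc, with a log2 fold change of 0.06 (95% interval -0.18 to 0.30, limma adjusted p = 0.819), an interval that lies below a change of 1.5-fold in either direction. Mdm4, a relative of Mdm2 that inhibits p53, had 572 and 456 in lv_nc, against 609.6 and 497 in lv_Mettl3, again overlapping. Zmat3, an RNA-binding protein gene induced by p53, had 191 and 171 in lv_nc, against 229 and 259 in lv_Mettl3. Its groups did not overlap, and its log2 fold change of 0.43 (SE 0.17) had a limma adjusted p of 0.486.

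Beside Pmaip1, 8 genes with a role in cell death were measured, and neither limma nor DESeq2 called any of them. Bax, the pore-forming effector of mitochondrial death, had 645 and 661 in lv_nc, against 659 and 723 in lv_Mettl3 (log2 fold change 0.08, 95% interval -0.20 to 0.37). Ei24, a gene of the endoplasmic reticulum that p53 induces, was the most even member, with 2143 and 2164 in lv_nc, against 2097 and 2163 in lv_Mettl3. Phlda3, which encodes an inhibitor of Akt at the membrane, had 1826 and 1709.7 in lv_nc, against 1899 and 2110.2 in lv_Mettl3. These 3 abundant targets differed by 0.18 or less on the log2 scale.

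In Aen and Tp53inp1 the lv_nc libraries differed by more than the groups did. Aen, an apoptosis-enhancing nuclease, had 916 and 473 in lv_nc, against 1059 and 1039.6 in lv_Mettl3. Its lower value in lv_nc came from replicate 2, and its limma log2 fold change of 0.67 (SE 0.32, adjusted p = 0.506) was 0.20 without that library and 1.15 without lv_nc replicate 1. Tp53inp1, which promotes p53 activity and autophagy, had 138 and 231 in lv_nc, against 163 and 158 in lv_Mettl3, so that the lv_Mettl3 libraries lay between those of lv_nc.

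The members with the fewest reads were Perp, Eda2r, Fas and Gdf15. Perp, a desmosomal p53 target, had 26.4 and 15.7 in lv_nc, against 56.2 and 52.7 in lv_Mettl3, from 27, 17, 53 and 51 reads. The groups did not overlap and its log2 fold change was the largest of the members at 1.37 (95% interval 0.39 to 2.36), with a limma adjusted p of 0.438 and a DESeq2 adjusted p of 0.356. Eda2r, a receptor of the tumour necrosis factor family, had 23.4 and 18.5 in lv_nc, against 11.7 and 13.4 in lv_Mettl3. Fas, the death receptor, had 2.93 and 7.39 in lv_nc, against 0 and 10.3 in lv_Mettl3, from 3, 8, 0 and 10 reads. A count of 0 reads allows up to 3 reads in that library, for counting error alone, and no difference in Fas was detectable at this depth. Gdf15, which encodes a secreted stress cytokine, was as sparse, with 3.91 and 11.1 in lv_nc, against 6.36 and 2.07 in lv_Mettl3. DESeq2 gave Fas and Gdf15 no adjusted p.

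**Figure D2:**
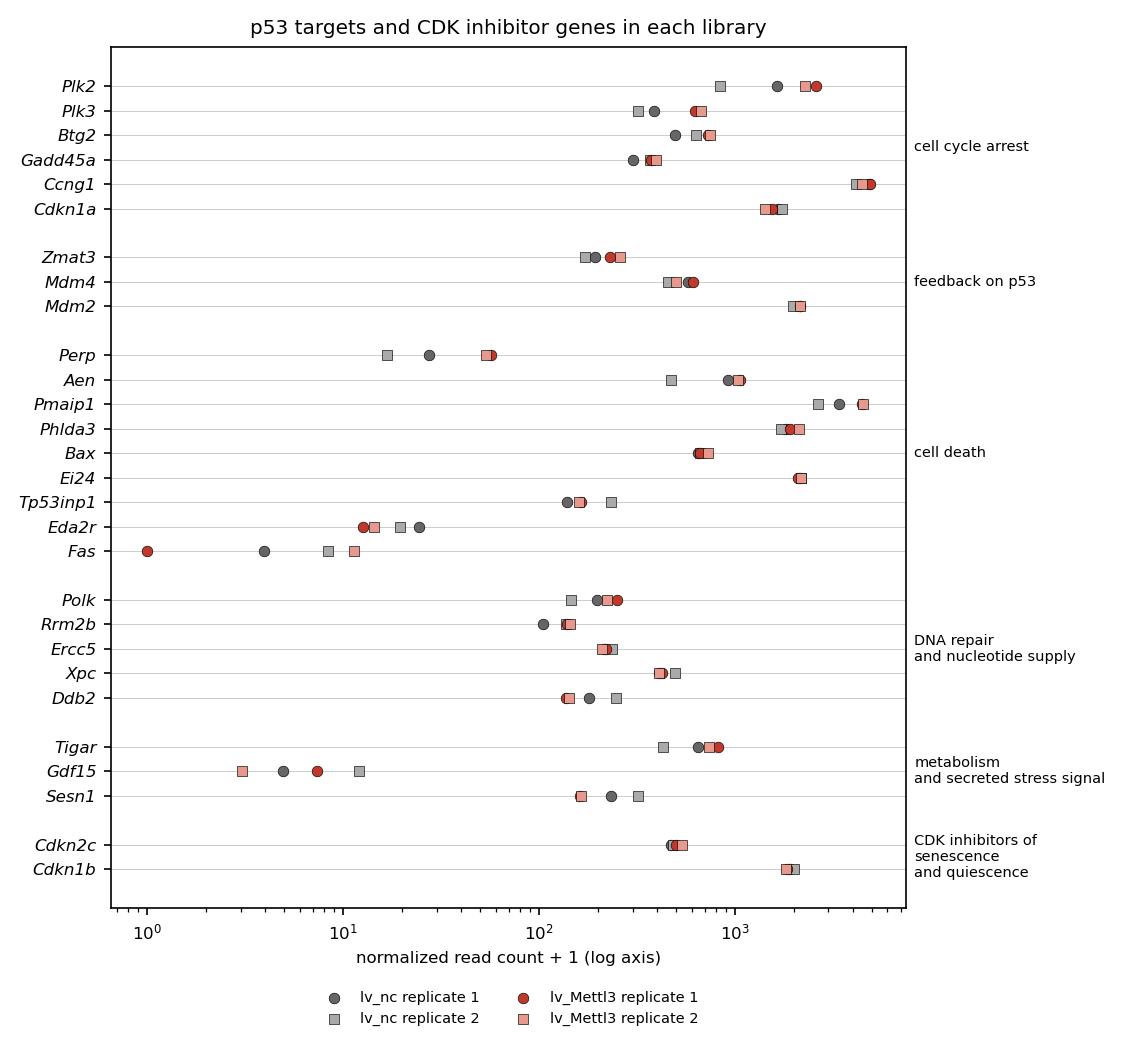
Normalized read count plus 1 on a log axis for each of the 28 members in each library (circles and squares are replicates 1 and 2, grey for lv_nc and red for lv_Mettl3), grouped by role. Plk2, Aen and Tigar show the wide gap between the lv_nc libraries, and Fas and Gdf15 lie near the lower end of the axis.

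The log2 fold changes of the DNA repair genes differed in sign, and none was called by limma or DESeq2. Ddb2, which recognises ultraviolet damage, had 179 and 245 in lv_nc, against 136 and 142 in lv_Mettl3. Both lv_Mettl3 libraries were below lv_nc, with a log2 fold change of -0.59, SE 0.22 (adjusted p = 0.471 by limma, DESeq2 adjusted p = 0.501). Xpc, its partner in global repair, had 407 and 492 in lv_nc, against 422 and 410.3 in lv_Mettl3, and Ercc5, a repair endonuclease, had 213 and 235 in lv_nc, against 218 and 208 in lv_Mettl3. Both overlapped. Polk, a translesion polymerase, had 196 and 145 in lv_nc, against 248 and 221 in lv_Mettl3 (log2 fold change 0.47, SE 0.22), and its value was 0.25 without lv_nc replicate 2. Rrm2b, the p53-induced subunit of ribonucleotide reductase, had 104 and 136 in lv_nc, against 138 and 143 in lv_Mettl3. Of these 5 genes limma, DESeq2 and edgeR called 0. At an unadjusted p under 0.05, limma gave 1 and edgeR 1, against 10.5% and 10.1% of all genes tested.

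The log2 fold changes of the metabolic targets had opposite signs, and neither gene passed limma or DESeq2 with all 4 libraries. Sesn1, a sestrin that restrains mTORC1, had 232 and 318 in lv_nc, against 161 and 162 in lv_Mettl3. This was the lowest log2 fold change among the members with a mean of at least 100, at -0.74 (SE 0.21, limma adjusted p = 0.442, DESeq2 adjusted p = 0.193). Its limma value was -0.97 without lv_nc replicate 1 and -0.52 without lv_nc replicate 2. Tigar, a phosphatase that lowers glycolysis, had 649 and 428 in lv_nc, against 815 and 739 in lv_Mettl3. Its log2 fold change was 0.56 (SE 0.22, limma adjusted p = 0.482), from 0.26 without lv_nc replicate 2 to 0.86 without lv_nc replicate 1.

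Of the CDK inhibitors of quiescence and senescence, the measured members were nearly level. Cdkn1b, which encodes p27, had 1904 and 2006 in lv_nc, against 1833 and 1824 in lv_Mettl3 (log2 fold change -0.10, 95% interval -0.32 to 0.13). Cdkn2c, which encodes p18, an inhibitor of Cdk4 and Cdk6, had 473 and 481 in lv_nc, against 496 and 535 in lv_Mettl3 (log2 fold change 0.11, 95% interval -0.19 to 0.41). In both genes the groups did not overlap, as in 45.0% of all genes tested, and both intervals included 0.

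**Figure D3:**
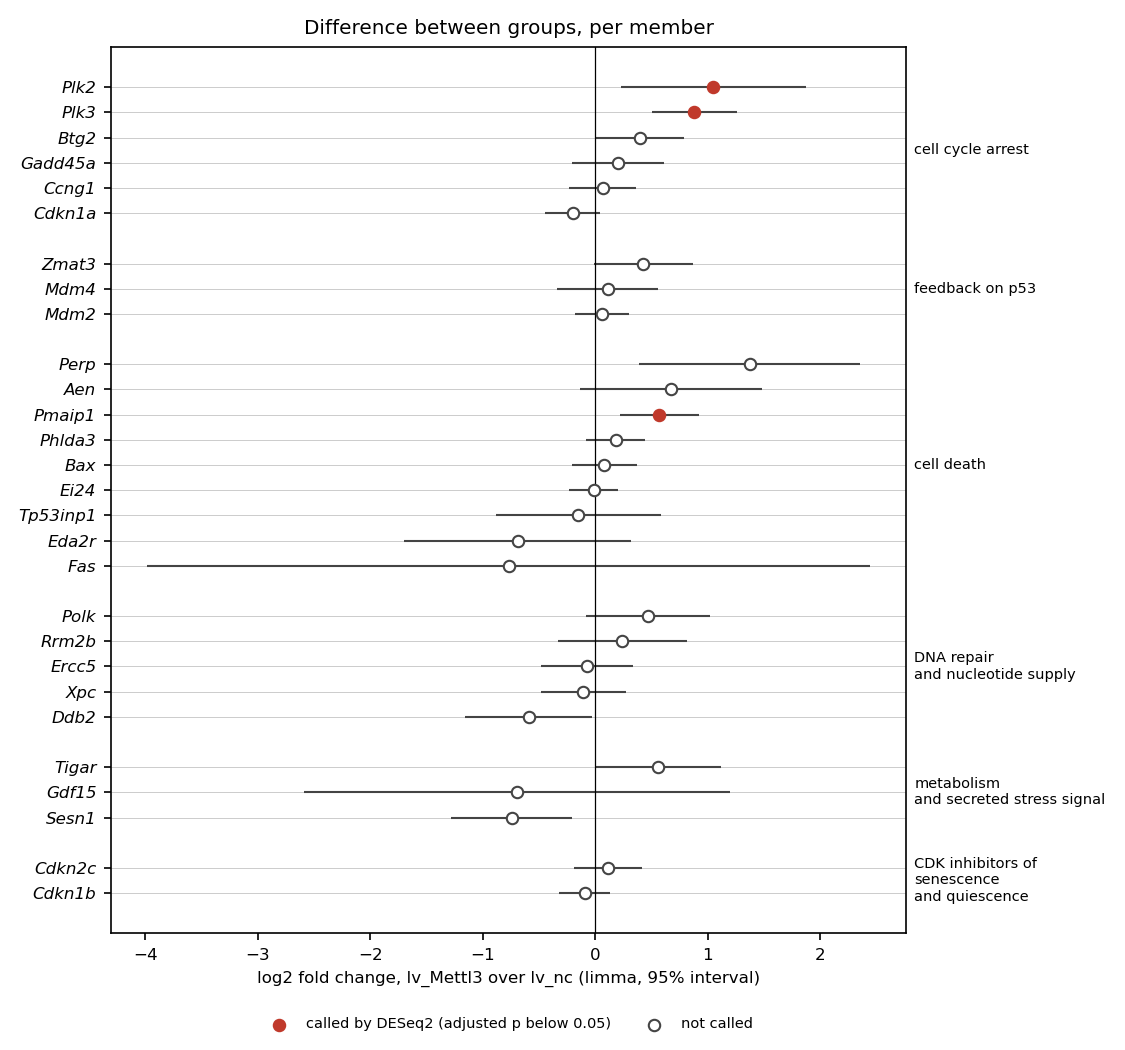
Limma log2 fold change of lv_Mettl3 over lv_nc with its 95% interval (lines) for each member, grouped by role; filled points are the 3 genes called by DESeq2. Cdkn1a, Mdm2, Ccng1, Bax and Ei24 lie within 0.20 of 0, and the interval of Fas runs from -3.99 to 2.44.

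Levels were compared per kilobase of the deposited gene length. The mean normalized count per kilobase was highest for Ccng1 (1415), Pmaip1 (1359) and Phlda3 (1326), followed by Cdkn1b (1078) and Ei24 (1065). Cdkn1a stood at 818 and Mdm2 at 719, above 88.2% and 86.5% of the genes tested. At the other end were Perp (20.1), Eda2r (8.83), Gdf15 (6.42) and Fas (2.02). Of the genes called by DESeq2, Pmaip1 was thus among the most abundant members, and Plk3, at 209, was higher than 61.3% of the genes tested.

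Both lv_Mettl3 libraries lay above both lv_nc libraries in 13 members and below them in 5, against 23.5% and 21.5% of all genes tested, or 18 of 28 members against 45.0% in either direction. Much of the spread among the members came from the lv_nc libraries. Replicates of lv_nc differed by a median of 0.33 on the log2 scale over the members and those of lv_Mettl3 by 0.10, beside 0.29 and 0.16 over all genes tested. With a mean of at least 100, these medians were 0.29 and 0.08 over the members, beside 0.21 and 0.10 over all such genes. In 21 of 28 members lv_nc replicate 2 was the highest or the lowest of the 4 libraries (lowest in 12, highest in 9), beside 65.5% of all genes tested. Leaving it out brought the log2 fold changes of Plk2, Aen, Tigar, Sesn1 and Ddb2 closer to 0 (0.57, 0.20, 0.26, -0.52 and -0.36), and those of Btg2, Gadd45a, Rrm2b and Eda2r further from 0 (0.58, 0.35, 0.43 and -0.85). Leaving out lv_nc replicate 1 moved the first 5 away from 0 (1.53, 1.15, 0.86, -0.97 and -0.82) and the other 4 towards it (0.22, 0.05, 0.05 and -0.53). In that fit limma called 6 members, namely Plk2, Plk3, Pmaip1, Aen and Tigar, higher, and Sesn1, lower, against 8.92% of all genes tested. The lone lv_nc library is assumed there to vary like the lv_Mettl3 libraries.

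**Figure D4:**
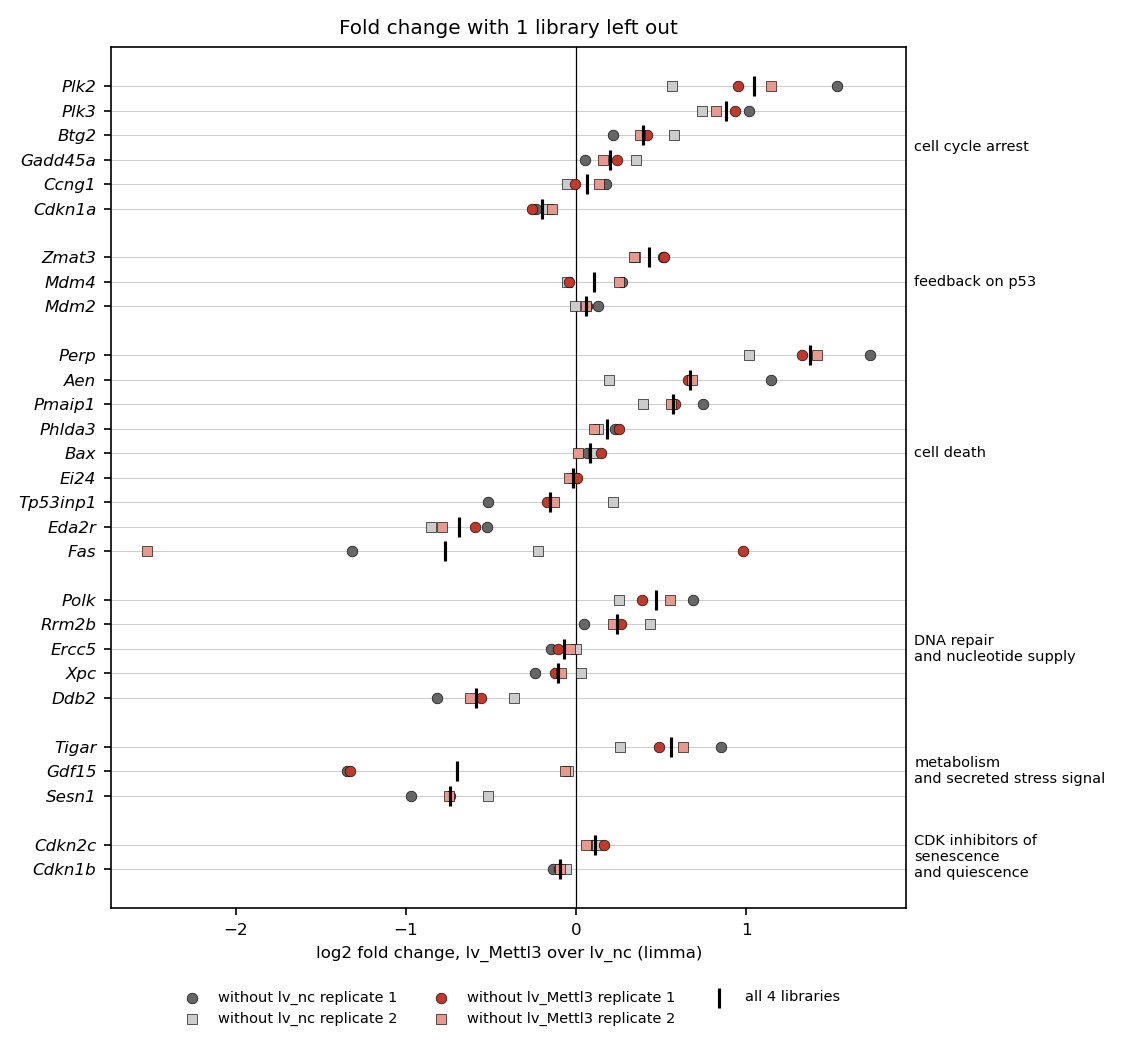
Limma log2 fold change of each member with all 4 libraries (bars) and with 1 library left out (points, by the library left out). For Plk2 the value runs from 0.57 without lv_nc replicate 2 to 1.53 without lv_nc replicate 1, while Cdkn1a stays between -0.26 and -0.14.

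Other genes of the pathway were read from lists of known members. Of 28 tested regulators of p53, among them the kinases and acetylases that activate it, limma and DESeq2 called 0 and edgeR 0, with 1 at an unadjusted p under 0.05 in limma and in edgeR, against 10.5% and 10.1% of all genes tested. Their log2 fold changes lay between -0.48 and 0.38, with a median of 0.02. The most abundant were Rpl5, a ribosomal protein that restrains Mdm2 (10963 and 9679 in lv_nc, 10281 and 10490.2 in lv_Mettl3), and the checkpoint kinase gene Chek1 (7139.8 and 7322 in lv_nc, 6832 and 7052 in lv_Mettl3). No regulator of p53 was therefore called in either direction.

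Of 37 other p53 targets tested, limma called 0. DESeq2 gave 35 of them an adjusted p and called 3 higher and 1 lower, against 1.45% and 1.07% of all genes given one. Sfn, which encodes 14-3-3 sigma, a block to mitotic entry, fell from 1285 ± 265 to 584 ± 70.1 (DESeq2 log2 fold change -1.14, adjusted p = 8.65e-06; limma adjusted p = 0.322). Epha2, an ephrin receptor gene, rose from 2414 ± 799.5 to 4164 ± 283 (DESeq2 adjusted p = 0.0109; limma 0.442). Klf4, a zinc finger factor gene, rose from 192 ± 41.9 to 382 ± 65.6 (DESeq2 adjusted p = 0.0202; limma 0.392). Dram1, a lysosomal gene of autophagy, rose from 3742 ± 208 to 5167 ± 286 (DESeq2 adjusted p = 0.0489; limma 0.378). Among p53 targets with a role in the cell cycle, Sfn was thus called lower and Plk2 and Plk3 higher. The list median was -0.05.

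No gene was called in the death and cell cycle machinery on which these targets act. Of 22 genes of the BCL2 family and apoptosome, limma, DESeq2 and edgeR called 0, with 4 at an unadjusted p under 0.05 in limma and 4 in edgeR, against 10.5% and 10.1% of all genes tested. Cycs, cytochrome c, had 1851 ± 453 in lv_nc and 2346 ± 108 in lv_Mettl3, and Bak1, the partner of Bax, had 1753 ± 145 and 1737 ± 117. Of 37 genes of CDKs, cyclins, the retinoblastoma protein and senescence, limma, DESeq2 and edgeR again called 0, with 2 at an unadjusted p under 0.05 in limma and 2 in edgeR, against the same shares. Id1 and Id3, inhibitors of differentiation factors, had 6173 ± 215 and 6421 ± 13.6 in lv_nc, beside 6829 ± 191 and 6827 ± 238 in lv_Mettl3. The medians of these lists were 0.00 and 0.06.

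Secreted factors known from senescent cells were called in both directions. Of 35 tested by limma, 1 was called, Cxcl10, against 0.0183% of all genes tested. DESeq2 gave 25 of them an adjusted p and called 7 higher and 3 lower, against 2.52% of all genes given one. The list was chosen with earlier results of these data known, so neither count supports a difference from all genes. The higher genes named by smallest p were the chemokine genes Cxcl10 (DESeq2 log2 fold change 2.21), Ccl2 (2.08) and Cxcl1 (1.51) and the macrophage growth factor gene Csf1 (1.29), with DESeq2 adjusted p of 6.22e-50, 8.39e-26, 1.17e-10 and 1.81e-11. These are also targets of NF-kB and interferon signalling. The list median was 0.16. Cdkn1a, Cdkn1b and Cdkn2c, arrest genes often read beside this secretion, were not called by either test in the same libraries. The stress gene Gdf15 was not called by limma and was given no adjusted p by DESeq2. Cdkn2a and Cdkn2b were not matched, so senescence itself was not tested.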

How the data were processed

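RNA of 4 NRK-52E libraries was read from the deposited gene table. CASAVA 1.4 and HISAT2 were used, per the submitters' processing notes; which counter, build and annotation is not given in the sources used here. Each library's column is a signal deposited by the authors, equal to reads per gene over a size factor of that library: 100% of values were whole multiples of the library's smallest positive value, within 0.001 reads, so whole reads were recovered. The log2 fold changes and p-values deposited by the authors were not used; gene lengths are the other value the authors deposited.

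The main test was limma 3.58.1 with a mean trend, two-sided. It was fitted to log2(value + 1) for the 16391 genes that reached 1 in 2 or more libraries, with Benjamini-Hochberg adjustment over all genes at 0.05. Fold changes on the log2(value + 1) scale can understate or overstate genes with few reads. For Fas the value was -0.77 with limma and 0.0028 with DESeq2. DESeq2 1.42.0, which gave 12601 genes an adjusted p, edgeR 4.0.16 and limma-voom were run on recovered reads. Scripts ran in R 4.3.3 and Python 3.11.15, with figures by matplotlib 3.10.9. All 28 listed members passed the filter. The fits were first tested on simulated data. Members and lists were chosen with earlier results of these data known. Members may all be named; from each other list up to 4 genes called by DESeq2, or else the 2 most abundant, are named; 1 gene of the pathway is not reported here. Motifs were searched in RefSeq promoters of build GRCr8.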

Additional observations from a re-analysis of the deposited data

How the results depend on the processing

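With other settings the number of genes called over the whole table was 318 with DESeq2, 0 with a pseudocount of 0.1, 24 with robust empirical Bayes and 5 with a filter of 1 CPM in all 4 libraries, edgeR or limma-voom. Members called numbered 3 with DESeq2. Other p53 targets called numbered 4 with DESeq2, and 2 with DESeq2 and a replicate block. Secreted factors called numbered 10 with DESeq2, 0 with library size scaling or a pseudocount of 0.1, 4 with robust empirical Bayes, and 2 with the CPM filter, edgeR or limma-voom. Replicate numbers are shared between groups, and deviations of same-numbered libraries had r = 0.33 over 10051 genes, but the labels give the number no meaning; the block left 0 members called in limma and 3 in DESeq2.

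Without 1 library limma called 28 to 1431 genes in all, 0 to 6 members, 0 to 1 regulators of p53, 0 to 8 other targets, 0 to 3 BCL2 family genes, 0 to 7 CDK genes and 4 to 12 secreted factors, the highest in each without lv_nc replicate 1. DESeq2 called 56 to 1547, 0 to 5, 0 to 2, 0 to 8, 0 to 4, 0 to 7 and 5 to 14. Of 28 members, 27 kept their direction in the 11 settings with all libraries. The exception, Fas, was at 0.0028 with DESeq2 and 0.014 with edgeR, and -2.52 to 0.98 without 1 library. Without 1 library Ccng1 ranged from -0.050 to 0.18, Mdm4 from -0.054 to 0.27, Mdm2 from -0.0035 to 0.13, Ei24 from -0.038 to 0.0065, Tp53inp1 from -0.52 to 0.22, Ercc5 from -0.14 to 8.6e-05 and Xpc from -0.24 to 0.030, and the other members kept their sign. Depth limits Fas, Gdf15, Eda2r and Perp most.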
